A study of Homo sapiens with 3 samples.

Results

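The 7 genes described here carry the insulin and insulin-like growth factor (IGF) signal from outside the cell to the nucleus: the ligand gene IGF2, the receptor genes INSR and IGF1R, the adaptor genes IRS1 and IRS2, and the forkhead factor genes FOXO1 and FOXO3. They were chosen by name, with earlier results of these data known. Binding of the transcription factor FOXA2 around them was read from peak lists of chromatin immunoprecipitation followed by sequencing (ChIP-seq). This method counts the sequenced ends (tags) of DNA fragments held by an antibody. A peak belonged to a gene if its midpoint lay in the gene or within 50 kb of either end on hg19. The 7 intervals, 1558 kb together, held 92 of 63949 peaks in FOXA2 replicate 1 and 42 of 26907 in replicate 2. Of these, 41 replicate 1 peaks overlapped a replicate 2 peak by at least 1 bp and are called shared sites, out of 24345 in the genome. Both replicates are immunoprecipitations with a Santa-Cruz FOXA2 antibody from Caco2 cells, a colorectal adenocarcinoma line that serves as a model of the gut lining, and the third library is input chromatin of the same line with no antibody. All were grown in low glucose DMEM with 10% FBS, a serum. No treatment or second genotype was compared. The values of the input library were not analysed here, and the peak lists hold no expression by which the cell type could be checked.

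Insulin and the IGFs bind receptor tyrosine kinases at the cell surface. The activated receptors phosphorylate the IRS adaptors, which recruit phosphoinositide 3-kinase and so activate the kinase AKT. AKT phosphorylates the FOXO factors and keeps them out of the nucleus, so genes driven by FOXO are active when insulin is low. FOXA2 and the FOXO factors share the forkhead DNA-binding domain and recognise similar letters, and FOXA2 is known in liver for its part in the fasting programme.

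Sequences of the binding sites themselves, which need an hg19 genome, were not used here. The stretches before the gene starts are shown instead for the 4 genes of the promoter table that had a peak about 1 kb or less from the start. They are the 250 bases before the RefSeq gene start on GRCh38.p14, which cannot be laid over the hg19 peaks base by base, and they were chosen after the peaks had been seen. A forkhead core would stand in capitals. IGF1R lies on the plus strand at chr15:98648289-98648538, IRS1 on the minus strand at chr2:226799821-226800070, FOXO1 on the minus strand at chr13:40666642-40666891 and FOXO3, at its most upstream start, on the plus strand at chr6:108559575-108559824.
IGF1R: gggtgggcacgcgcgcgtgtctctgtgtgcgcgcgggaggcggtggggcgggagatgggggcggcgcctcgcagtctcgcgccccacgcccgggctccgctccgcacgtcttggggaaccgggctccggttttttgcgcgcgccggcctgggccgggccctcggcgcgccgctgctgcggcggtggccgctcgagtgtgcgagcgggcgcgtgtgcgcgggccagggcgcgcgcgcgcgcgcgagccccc
IRS1: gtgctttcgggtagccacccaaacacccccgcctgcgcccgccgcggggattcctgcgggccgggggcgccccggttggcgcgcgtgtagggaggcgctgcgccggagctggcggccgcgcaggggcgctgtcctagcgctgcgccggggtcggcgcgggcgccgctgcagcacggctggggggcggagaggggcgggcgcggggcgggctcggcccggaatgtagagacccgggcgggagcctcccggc
FOXO1: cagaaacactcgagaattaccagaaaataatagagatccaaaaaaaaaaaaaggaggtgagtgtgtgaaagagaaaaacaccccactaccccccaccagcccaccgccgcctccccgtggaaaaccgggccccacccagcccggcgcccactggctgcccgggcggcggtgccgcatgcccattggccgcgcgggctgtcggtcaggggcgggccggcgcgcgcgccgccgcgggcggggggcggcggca
FOXO3: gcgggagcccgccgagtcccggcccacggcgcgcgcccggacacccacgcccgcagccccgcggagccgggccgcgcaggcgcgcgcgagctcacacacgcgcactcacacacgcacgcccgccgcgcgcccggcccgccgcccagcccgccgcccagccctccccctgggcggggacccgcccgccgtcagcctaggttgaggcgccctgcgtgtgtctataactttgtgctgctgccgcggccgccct

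All letters stayed in lower case. The core was searched on both strands as TGTTTAC and its variants, TATTTAC and TGTTTGC and TATTTGC. The first of these, TGTTTAC, read on the other strand is GTAAACA, the core that FOXO factors are known to bind. None of the 9 stretches of the 6 genes in the table held a match, against 10.6% of 35116 stretches over all genes. The 4 stretches shown are rich in G and C, with 81.2% in IGF1R, 80.8% in IRS1, 80.4% in FOXO3 and 67.2% in FOXO1, beside a median of 58.0% over the table. The absence of a match says only that these letters are not in these windows. Strings with another last letter, such as TGTTTAT, were not searched. A FOXO3 stretch that is not shown, that of its start 2, holds ATAAACA, which is TGTTTAT read on the other strand.

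FOXA2 sites were unevenly divided among the 7 genes. IGF1R had 13 shared sites, IRS1 had 9, FOXO3 had 8 and FOXO1 had 7. IRS2 had 2, and IGF2 and INSR had 1 each. With only peaks that score at least 10, the counts were 6 at IGF1R, 8 at IRS1, 3 at FOXO3 and 6 at FOXO1, so IGF1R then no longer had the most. At any score, shared sites per Mb of interval were 53.6 at IRS1 (95% exact Poisson interval 24.5 to 102) and 35.6 at FOXO3 (15.4 to 70.1). FOXO1 had 33.0 (13.3 to 68.0) and IGF1R 31.2 (16.6 to 53.4). These 4 intervals overlap each other, and each lies above the 8.61 shared sites per Mb of the genome, counted over 2828 windows of 1 Mb that hold a peak. At IRS2 the density was 15.0 (1.82 to 54.3), at IGF2 8.26 (0.209 to 46.0) and at INSR 3.53 (0.0895 to 19.7), and these 3 intervals include the genome's value. Over all 7 loci the density was 26.3 per Mb (18.9 to 35.7), 3.06 times that of the genome. The genome's windows are not limited to genes, and stretches around other genes were not compared. Sites cluster and are not independent counts, so the intervals are too narrow, and no test was made. Caco2 cells have an altered karyotype, and its part in these densities was not tested. Some of these ratios rest on replicate 2, the smaller list. IRS1 stood 6.22 times above the genome by shared sites but 2.90 times by all replicate 1 peaks, and FOXO3 4.13 and 2.36 times. INSR stood at 0.41 times by shared sites and at 1.25 times by all replicate 1 peaks. IGF1R, at 3.63 times, had 4.04 times by replicate 1 and 3.29 times by replicate 2. Against its own chromosome each of the 4 densest genes was still higher, by 5.28 times for IRS1 on chromosome 2, 3.95 for FOXO1 on chromosome 13, 3.79 for FOXO3 on chromosome 6 and 3.22 for IGF1R on chromosome 15.

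**Figure D1:**
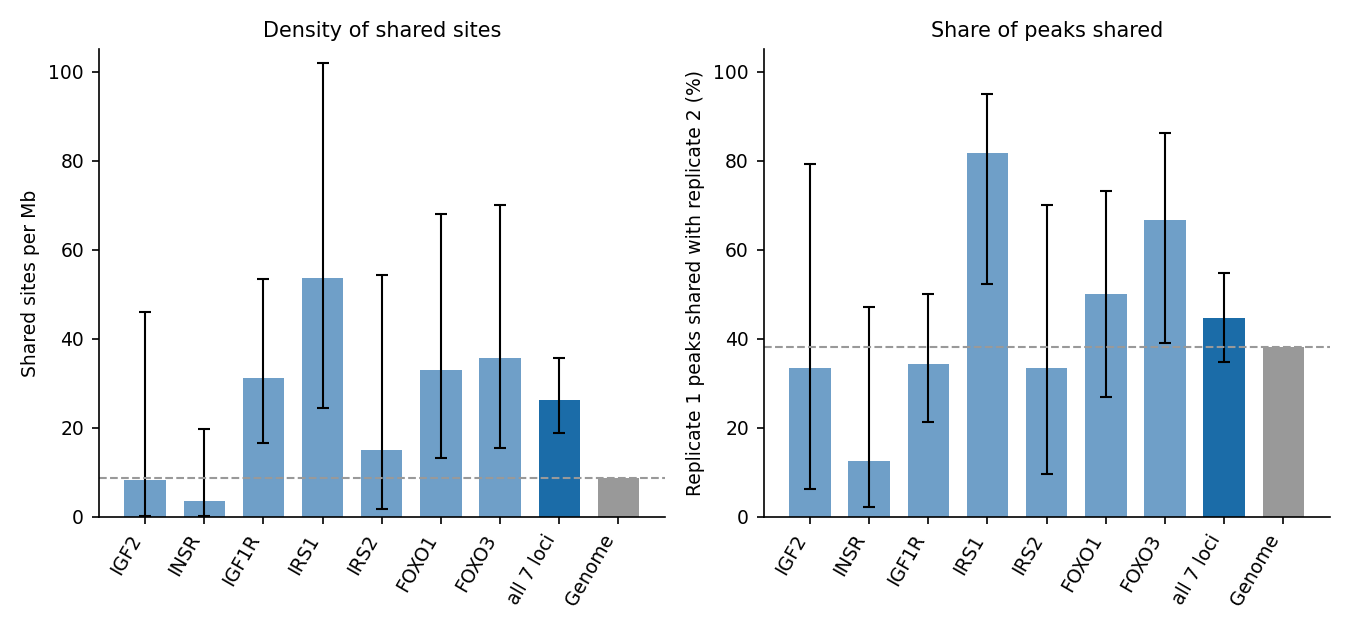
Left, shared FOXA2 sites per Mb at each gene with 50 kb on each side, at the 7 loci together and in the genome, with 95% exact Poisson intervals; right, how many replicate 1 peaks were shared, in percent, with 95% Wilson intervals. IRS1 is highest in both panels, with 53.6 sites per Mb and 81.8% shared, beside 8.61 and 38.1% in the genome (dashed lines).

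Replicate 2 found 41 of the 92 replicate 1 peaks at these genes, or 44.6% (95% Wilson interval 34.8% to 54.7%), beside 38.1% over the genome, so the loci were near the background. In the other direction 41 of 42 replicate 2 peaks were shared, 97.6% (87.7% to 99.6%), beside 90.5% over the genome. The genes differed among themselves. At IRS1 9 of 11 replicate 1 peaks were shared, 81.8% (52.3% to 94.9%), and at FOXO3 8 of 12, 66.7% (39.1% to 86.2%), with intervals above the background, by a small margin at FOXO3. At IGF1R 13 of 38 were shared, 34.2% (21.2% to 50.1%), and at INSR 1 of 8, 12.5% (2.24% to 47.1%). Peaks of replicate 1 alone scored low, between 4 and 15 with a median of 6, which is also the genome's median for such peaks. The score is the authors' tag count of a peak scaled to 10000000 tags per library, here called normalised tags. Of these, 1 unit stands for 2.62 tags in replicate 1 and 1.58 in replicate 2. The calling thresholds were 11 tags in replicate 1 and 10 in replicate 2, so a peak needed a higher score to be called in replicate 2. The part of this in the shares of the single genes was not tested.

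In strength the sites were ordinary for this factor, apart from a few. The median of the mean scores was 16.0 over the 41 sites and 14.5 over all shared sites. A mean score of at least 44, the 90th percentile of all shared sites, was reached by 5 of 41, or 12.2%, beside 10.1% in the genome. IRS1 held 3 of the 5, and FOXO1 and FOXO3 held 1 each. Without IRS1, 2 of 32 sites, or 6.25%, reached it.

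**Figure D2:**
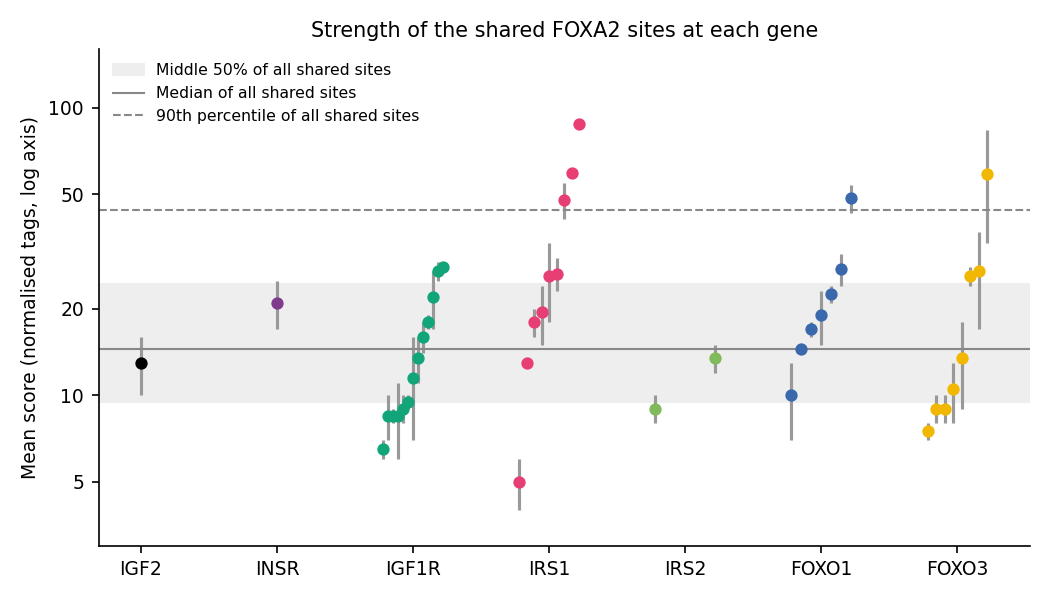
Mean score of each shared site by gene in normalised tags on a log axis (points), with the scores of the replicates at the ends of each line; the band, line and dashed line give the middle 50%, median and 90th percentile of all shared sites in the genome. Sites above the dashed line at 44 are found at IRS1 (3), FOXO1 (1) and FOXO3 (1), and all 13 IGF1R sites lie at or below 28.0.

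At the ligand gene IGF2, which encodes an imprinted fetal growth factor, binding was sparse. Its shared site lay on chromosome 11 at 2143642 to 2143764, downstream of the gene and about 27 kb from the gene start, and scored 16 in replicate 1 and 10 in replicate 2 (13.0 ± 4.24, SD, n = 2). The counting intervals of the scores (95%, exact Poisson) overlap, at 11.5 to 21.6 and 5.69 to 16.3. Replicate 1 alone had a peak of 7 about 1 kb before the gene start, at 2172372 to 2172494, and one of 6 at 2200178 to 2200300. The genes INS, which encodes insulin, and TH, which encodes tyrosine hydroxylase, lie in the same stretch by the RefSeq table. Peaks of this interval are not assigned to any 1 gene here. A shared site lay 4.40 kb beyond the interval's high end, at 2225335 to 2225457, with scores of 7 and 10.

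INSR encodes the insulin receptor and spans 183 kb, yet it held a single shared site. This site, on chromosome 19 at 7214460 to 7214582, lay inside the gene about 80 kb from its start and scored 25 in replicate 1 and 17 in replicate 2 (21.0 ± 5.66, SD, n = 2). Its mean score was above that of 68.3% of all shared sites, so it was not a weak one. The other 7 peaks of the interval were found in replicate 1 alone and scored 5 to 9, of which a score of 5 stands for about 13 tags. They included the peak nearest the start, about 7 kb inside the gene at 7287816 to 7287938, with a score of 5. The site stood by itself: the nearest other shared site was 196 kb away, outside the interval.

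The IGF1 receptor gene IGF1R, whose product binds both IGFs, showed the opposite picture of many sites of low to middle strength. Its 13 shared sites had mean scores from 6.5 to 28.0 with a median of 11.5, and 12 of them lay inside the gene. The strongest, on chromosome 15 at 99214593 to 99214715 about 23 kb from the start, scored 28 in both replicates. The site at 99387173 to 99387295 scored 25 in replicate 1 and 29 in replicate 2 (27.0 ± 2.83, SD, n = 2). The means of these top sites differ by less than the replicate SD of the second, and replicate 2 alone would rank the second first.

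Further along the gene the sites came in close groups. The site at 99440597 to 99440719 scored 27 and 17 in replicates 1 and 2, and that at 99440180 to 99440302, 0.417 kb away, scored 19 and 17. At 99342836 to 99342958 the scores were 18 and 14, in a group of 3 sites over 11.1 kb. The site at 99267912 to 99268034, with 16 and 11, had no other within 40 kb. The site nearest the gene start lay within 1 kb of it, at 99191761 to 99191883, and scored 16 in replicate 1 and 7 in replicate 2 (11.5 ± 6.36, SD, n = 2). That is the site beside the IGF1R stretch printed above, and it was weak in replicate 2, where 8.46% of all peaks scored lower. IGF1R also had 25 peaks of replicate 1 alone, with scores of 4 to 15. The highest of them, 15 at 99155195 to 99155317, is the highest single-replicate peak of the 7 genes.

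IRS1, the founding member of the insulin receptor substrate adaptors, held the site with the highest mean score of the 7 genes and had the most shared sites per Mb, within overlapping intervals. By all replicate 1 peaks its density was 65.5 per Mb, below the 91.3 of IGF1R and close to the 66.0 of FOXO1. Inside the gene, 7 shared sites lay over 68 kb. The strongest of the 41 sites lay about 26 kb from the gene start on chromosome 2, at 227637443 to 227637565, and scored 91 in replicate 1 and 85 in replicate 2 (88.0 ± 4.24, SD, n = 2). It ranked 543rd of 24345 shared sites by mean score, and the called centres differed by 1 bp. A weaker site 1.61 kb away, at 227635836 to 227635958, scored 18 and 34 in replicates 1 and 2 (26.0 ± 11.3). Its counting intervals do not overlap (13.2 to 23.9 and 25.5 to 44.4), so there the replicates differed by more than counting error.

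The far end of IRS1 held the next strongest pair of the gene. The site at 227598051 to 227598173, about 66 kb from the start, scored 62 in replicate 1 and 57 in replicate 2 (59.5 ± 3.54, SD, n = 2). The site 7.01 kb from it, at 227605059 to 227605181, scored 41 and 55 (48.0 ± 9.90). Between them replicate 2 alone had a peak of 10 at 227603882 to 227604032, the only peak of the 7 genes found in that replicate alone. In the middle of the gene, sites at 227621035 to 227621157 and 227625585 to 227625707 scored 20 and 16, and 13 and 13, in replicates 1 and 2.

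Around the start of IRS1, FOXA2 was found on both sides. The site at 227665383 to 227665505, about 1 kb before the start, scored 23 in replicate 1 and 30 in replicate 2 (26.5 ± 4.95, SD, n = 2), above 77.1% of all shared sites. About 5 kb inside the gene, at 227659131 to 227659253, the scores were 15 and 24. Replicate 1 alone had peaks of 7 and 11 at 227666260 to 227666382 and 227667379 to 227667501. The weakest of the 41 shared sites, with 4 and 6, lay about 14 kb before the start at 227677942 to 227678064. The RefSeq table also lists the protein-coding gene RHBDD1, which encodes a rhomboid protease, in this interval. Sites upstream of IRS1 are therefore not assigned to IRS1.

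The second adaptor gene, IRS2, which is a main carrier of the insulin signal in liver, differed from IRS1 in these counts, with 2 shared sites against 9, though their intervals per Mb overlap. Both sites lay outside the gene. The site about 16 kb before the start, on chromosome 13 at 110455391 to 110455513, scored 12 in replicate 1 and 15 in replicate 2 (13.5 ± 2.12, SD, n = 2). The site downstream of the gene, about 66 kb from the start at 110373098 to 110373220, scored 10 and 8 (9.0 ± 1.41). No peak of either replicate fell inside the 33 kb of IRS2. Of 4 peaks in replicate 1 alone, with scores of 4 to 7, the nearest to the start lay about 5 kb before it. A shared site with 16 and 11 lay 0.218 kb beyond the edge of the interval, at 110489158 to 110489280, and 100 kb flanks would count 5 sites.

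**Figure D3:**
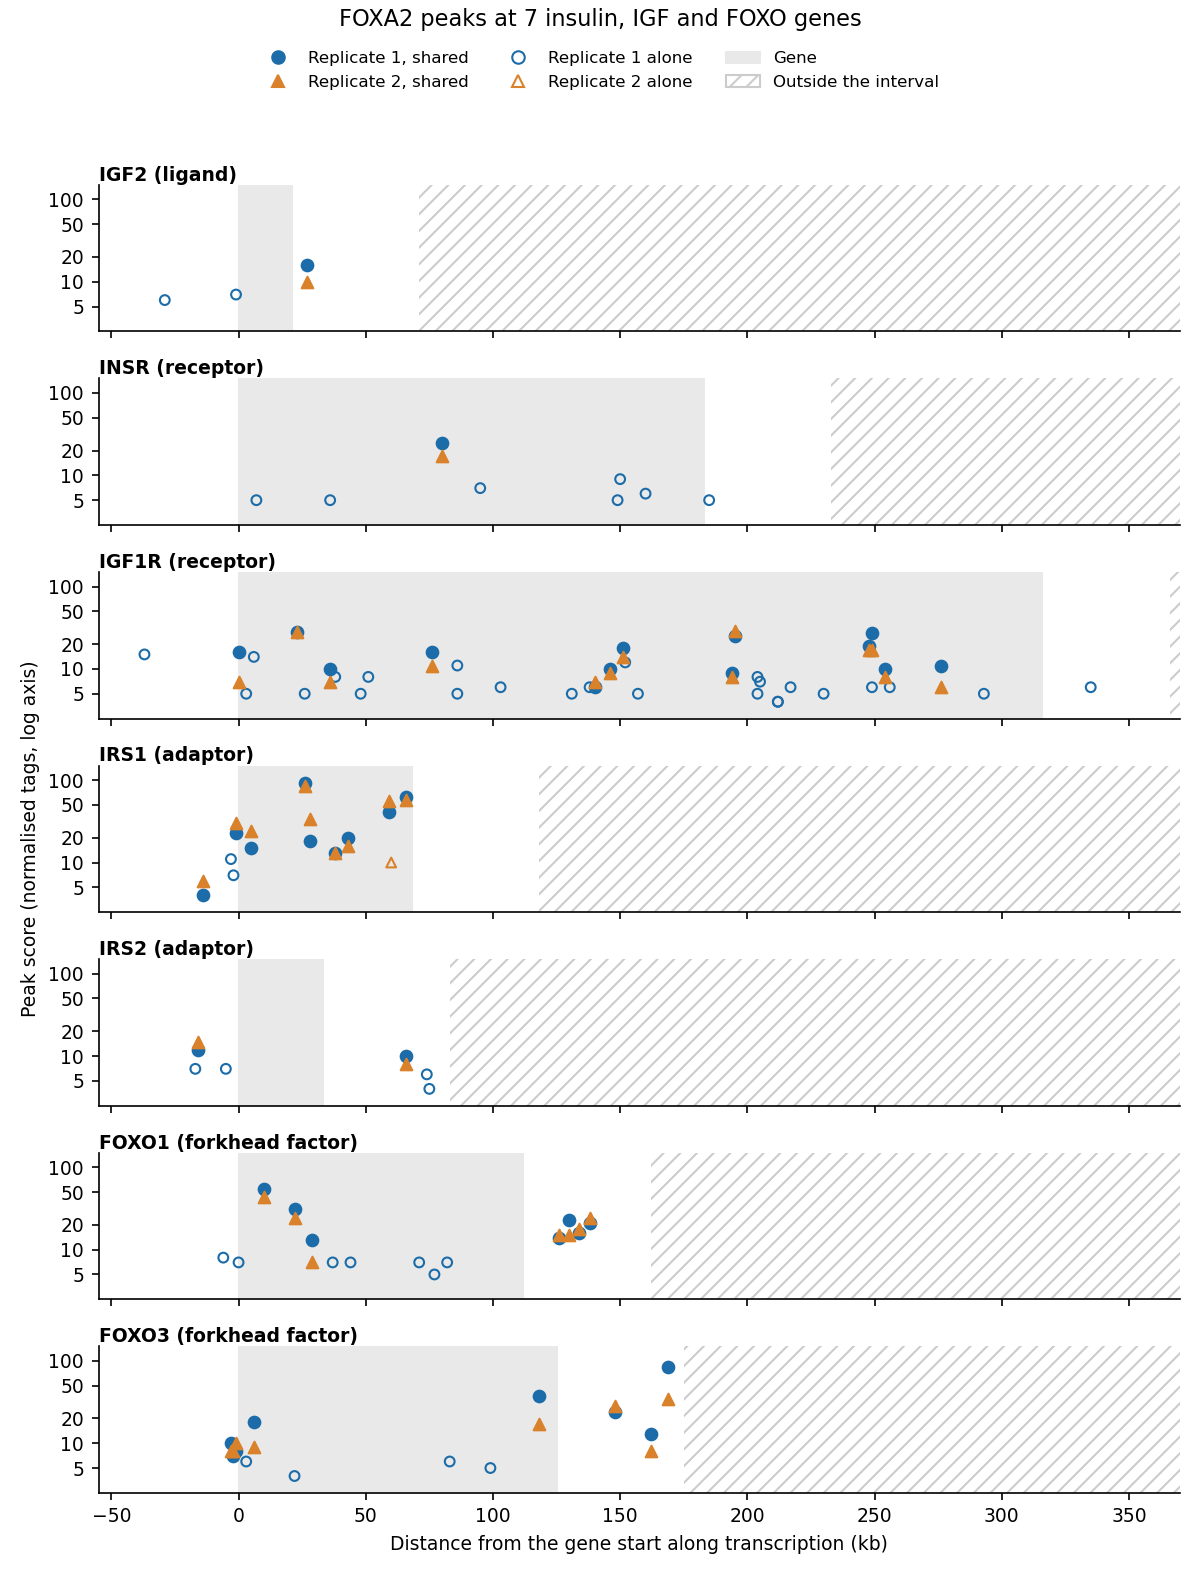
Peak scores (normalised tags, log axis) against distance from the gene start along transcription in kb, which is known to 1 kb, for each of the 7 genes; filled marks are shared sites, open marks peaks of 1 replicate, grey the gene. IRS1 carries its 3 strongest sites 26 kb to 66 kb into the gene, IRS2 has no peak inside the gene, FOXO1 has shared sites inside and downstream of the gene, and FOXO3 has them just before, inside and downstream of the gene.

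FOXO1 encodes the factor that insulin switches off in the control of gluconeogenesis. Its 7 shared sites fell into separate groups, 3 in the first 29 kb of the gene and 4 downstream of it. The strongest, on chromosome 13 at 41230686 to 41230808 about 10 kb inside the gene, scored 54 in replicate 1 and 43 in replicate 2 (48.5 ± 7.78, SD, n = 2). Next to it along the gene, the site at 41219427 to 41219549 scored 31 and 24 (27.5 ± 4.95), and the one at 41211787 to 41211909 scored 13 and 7. Scores were thus highest at the site nearest the gene start and lower further in, in both replicates. The downstream group spanned 11.5 kb from 41103170 to 41114834. Its 4 sites scored 21, 16, 23 and 14 in replicate 1 and 24, 18, 15 and 15 in replicate 2, in order of position. These are middle values with mean scores of 14.5 to 22.5, and the order of the 4 differed between the replicates.

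Between the groups lay 97 kb without a shared site, which held 5 peaks of replicate 1 alone with scores of 5 to 7. At the gene start itself replicate 1 alone had a weak peak of 7, at 41241031 to 41241153, beside the FOXO1 stretch printed above. The RefSeq table lists no other protein-coding gene within 50 kb of FOXO1.

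FOXO3, a relative of FOXO1 known for its part in stress resistance, had 8 shared sites, of which 2 lay inside its 125 kb. The strongest was also the farthest from the gene start, about 169 kb from it and past the end of the gene, on chromosome 6 at 109050238 to 109050360, and scored 84 in replicate 1 and 34 in replicate 2 (59.0 ± 35.4, SD, n = 2). This is the widest spread of the 41 sites: the ratio of 2.47 compares with a median of 1.20 over the genome, and the counting intervals (73.3 to 95.9 and 25.5 to 44.4) do not overlap. It lies 5.70 kb inside the edge of the interval. The RefSeq table also lists the protein-coding gene AFG1L in this stretch, so the site is not assigned to FOXO3. The site at 109028638 to 109028760 scored 24 and 28 in replicates 1 and 2 (26.0 ± 2.83), and that at 109042525 to 109042647 scored 13 and 8.

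Near the far end of the gene, the site at 108999242 to 108999364 scored 37 in replicate 1 and 17 in replicate 2 (27.0 ± 14.1, SD, n = 2), again with counting intervals that do not overlap (30.0 to 45.1 and 11.2 to 24.8). Around the gene start FOXO3 had a group of 4 weak sites over 9.82 kb. About 3, 2 and 1 kb before the start, sites scored 10, 7 and 8 in replicate 1 and 8, 8 and 10 in replicate 2. The nearest of them is at 108879716 to 108879838, and the FOXO3 stretch printed above is that of its most upstream start. The fourth, about 6 kb inside the gene at 108887295 to 108887417, scored 18 and 9. Start-near binding at FOXO3 was thus seen in both replicates but at low scores, with mean values of 7.5 to 13.5.

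The genes differed in where their sites lay. In all, 25 of the 41 shared sites, 61.0%, lay inside a gene, and genes made up 55.1% of the length searched. At IGF1R it was 12 of 13 (92.3% of sites, 76.0% of length) and at IRS1 7 of 9 (77.8% and 40.5%), while at FOXO3 it was 2 of 8 (25% and 55.6%). Another shared site within 10 kb was found for 28 of 41, or 68.3%, beside 39.0% over the genome, and these were 8 of 9 at IRS1, 6 of 7 at FOXO1, 6 of 8 at FOXO3 and 8 of 13 at IGF1R. Whether this share differs from that of other regions of equal density was not tested.

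Scores were close between the replicates at most sites. Replicate 2 scored higher at 14 of 41 sites, 34.1%, beside 29.7% over the genome. At IRS1 it was 5 of 9, with a median log2 ratio of replicate 1 to replicate 2 of -0.38, against 0.26 over all shared sites, and at IGF1R 2 of 13, with a median of 0.32. Of the 41 sites, 2 lay more than 2-fold from the genome's median ratio, 4.88% beside 9.77%: the strongest FOXO3 site, higher in replicate 1, and the IRS1 site at 227635836, higher in replicate 2. Called centres differed by 0 to 63 bp with a median of 13 bp.

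**Figure D4:**
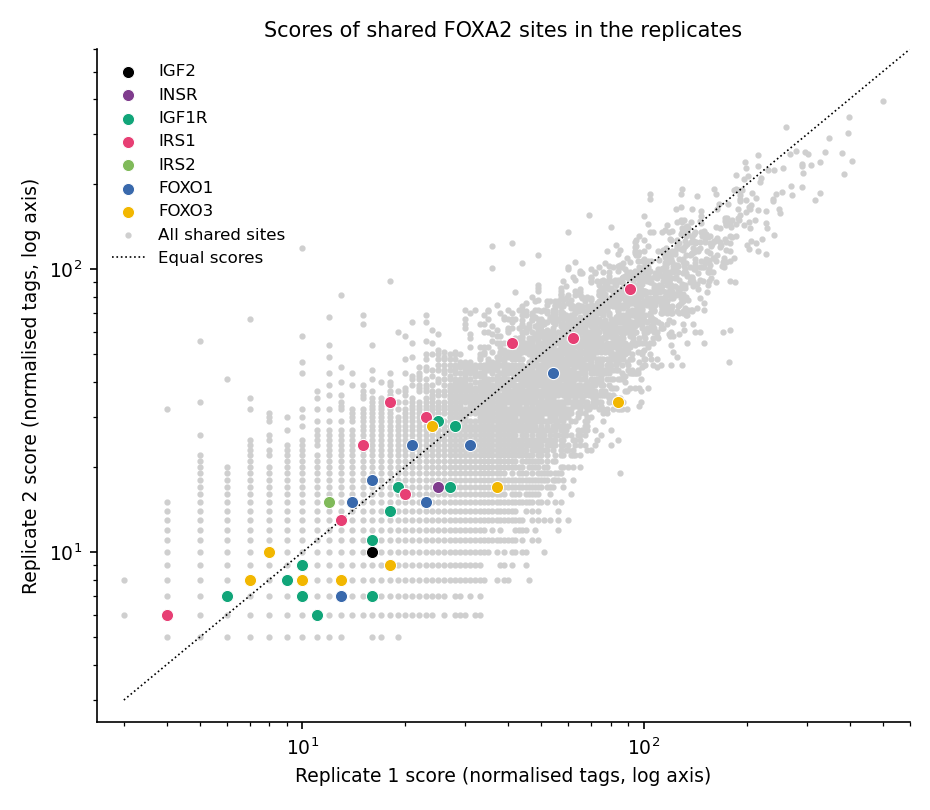
Replicate 2 score against replicate 1 score (normalised tags, both axes log) for the 41 shared sites, coloured by gene, over all shared sites of the genome in grey; the dotted line marks equal scores. The strongest IRS1 site (91 and 85 in replicates 1 and 2) lies near the line, the strongest FOXO3 site (84 and 34) well below it.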

How the data were processed

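The data are FOXA2 ChIP-seq peak lists of 2 replicates from Caco2 cells, both called against 1 input library. Bowtie 1.0.0, HOMER 1.2 and build hg19 are named, per the submitters' processing notes. Peaks were called with HOMER findPeaks in factor style for each replicate on its own, from 26183147 tags in replicate 1 and 15756702 in replicate 2, at 4-fold over input and over the local 10000 bp, per the file headers. The deposited score is a whole number that the authors scaled to 10000000 tags per library. Peak widths are 123 bp and 151 bp.

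Gene intervals were given in whole kb, so distances are good to 1 kb. Gene strands and neighbours came from RefSeq tables of GRCh38.p14. Protein-coding neighbours were also listed at INSR (ZNF557), IGF1R (PGPEP1L) and IRS2 (LOC124903211). Sites were placed by position, which does not name the gene they act on. Shares carry 95% Wilson intervals, and site densities and scores exact Poisson intervals, all for counting error only. No test was made, since there is 1 condition and peaks are not replicates. Whether the replicates are separate cultures is not stated in the labels, so their spread may be technical. Overlap calls were tested on simulated data. Tables were handled with pandas 2.3.3 and numpy 2.4.6, intervals with scipy 1.17.1, in Python 3.11.15. For loci with more than 6 shared sites, the 6 with the highest mean score and the one nearest the gene start were to be named, with others added after their values were seen. The genes and alternatives were chosen with earlier results of these data known.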

Additional observations from a re-analysis of the deposited data

How the results depend on the processing

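The count of 41 shared sites was 26 with peaks that score at least 10 (IGF1R 6, IRS1 8, FOXO1 6, FOXO3 3), 25 in the genes alone, and 42 to 92 when 1 replicate was left out and all peaks of the other counted. The share of replicate 1 peaks shared was 63.4% with peaks that score at least 10, which drops weak peaks by construction. The density ratio of the 7 loci, 3.06, ranged from 2.61 to 3.38 over its alternatives. In the gene alone the ratio was 12.0 for IRS1, 1.86 for FOXO3 and 0 for IGF2 and IRS2. With peaks that score at least 10 it was 2.48 for FOXO3 and 1.54 for IGF2. Of 140 alternatives for single genes, 109 stayed within the limit set and 31 moved. For the density ratio of IGF2, 0.96, an alternative of 0.677 counted as within it and one of 1.54 as moved. The strongest site of a gene was the same in 20 of 21 alternatives, the exception being IGF1R without replicate 1, where another site scored 29. IGF2 and INSR had 1 shared site each, so some of their alternatives had to give the same site. With replicate 1 alone, the nearest peak to the start was at about 1 kb for IGF2, 7 kb for INSR, 5 kb for IRS2 and under 1 kb for FOXO1, beside 27, 80, 16 and 10 kb for shared sites. No paired analysis was possible because there is 1 condition. Motifs in the sites and the other pathway genes were not run, since no hg19 genome or annotation was used here. The part of depth in weak sites missed by replicate 2 was not tested.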
